A study of Homo sapiens with 38 samples.

Results

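The genes described here are 55 genes of cell division: mitotic kinases, cyclins and CDC25 phosphatases, checkpoint genes, mitotic kinesins, and genes of the centromere, kinetochore, spindle, condensed chromosome and cleavage furrow. They were taken as a list of symbols, of 24463 genes listed in at least 1 of 15 tables, and all 55 were listed and tested in every table. For description they were sorted into 8 groups by role, which hold 8 kinases, 6 cyclins and phosphatases, 6 checkpoint and anaphase genes, 10 kinesins, 9 centromere and kinetochore genes, 8 spindle genes, 5 genes of chromosome structure and 3 genes of cytokinesis.

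Polyadenylated RNA was sequenced from 38 samples of 3 established human breast cancer lines in 19 groups of 2. Cells of the lines T47D, T47D-TR and BT-549 received 2.5 uM MS177, a PROTAC (a compound that brings its target to a ubiquitin ligase for degradation) directed at the histone methyltransferase EZH2, or the same dose of a negative control of MS177 (MS177-N1 or MS177-N2) or of C24, an inhibitor of the EZH2 enzyme, for 48 h, against a vehicle of 0.125% DMSO. T47D-TR cells also received 2.5 uM MS8815, another EZH2 PROTAC, its negative control MS8815-N or the EZH2 inhibitor EPZ-6438 for 30 h, against 0.05% DMSO. All cells grew in RPMI medium with serum and insulin. Nothing in the labels states that the 2 replicates of a group came from different cultures, so every p-value below measures only the spread between these samples, which may be technical.

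Mitosis is driven by CDK1 with cyclin B, which the CDC25 phosphatases switch on, and by the Aurora, Polo-like and checkpoint kinases that act after it. Kinesin motors and spindle proteins build the spindle, kinetochores tie each chromosome to it, and the anaphase promoting complex with its activator CDC20 ends mitosis by marking cyclins and securin for destruction. Transcripts of many of these genes rise in late S, G2 and M phase, through the MuvB complex with B-MYB or FOXM1 and the factor NF-Y, and they are low in cells that have left the cycle. In RNA from whole cultures, fewer cells in mitosis and less RNA of these genes per cell cannot be told apart.

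Values are normalized counts, obtained by undoing the variance-stabilizing transform of the authors' log2 tables. Depth over listed genes was 32.1 to 49.9 M reads per library in T47D and BT-549. For T47D-TR it is unknown. Each table was scaled on its own, so levels were compared within a table. The same DMSO libraries therefore carry slightly different values in different comparisons. Log2 differences are on the log2(normalized count + 1) scale, and a gene was called past an adjusted p of 0.05 over all genes of its table (limma, two-sided). In DMSO cells ESR1 averaged 4550.1 normalized counts in T47D, 1548 in T47D-TR and 4.69 in BT-549. In that order VIM averaged 98.1, 6.60 and 78972, and FOXA1 10972, 4972 and 21.5. The luminal markers GATA3 and KRT18 were also present in BT-549 (6242 and 19234). PGR averaged 14787 in T47D but 282 in T47D-TR. These levels come from tables scaled separately for each line. The blood and endothelial markers PTPRC, CD3E and PECAM1 were not listed, other than PTPRC at 4.72 in BT-549. Some libraries stood apart. The 2 MS177 libraries of T47D correlated at 0.913 over all genes, against 0.987 for the DMSO pair, and replicate 2 of MS8815-N had 44.3% of its genes at 0. In T47D the MS177-N1 table held 1 library of that group, because its other column was identical to an MS177-N2 library at 100% of 17724 genes.

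Promoter windows are shown because many members hold the same short motifs in them. RefSeq windows of 300 bases (250 before and 50 after the start, GRCh38.p14) matched 48 of the 55 members. The windows of SPC25 (chr2:168890381-168890680, minus strand), CCNB2 (chr15:59104896-59105195, plus strand), PLK1 (chr16:23678639-23678938, plus strand) and CDC25B (chr20:3786701-3787000, plus strand) follow, 5′ to 3′. Capitals mark the letters TTTGAA or TTCGAA, the cell cycle genes homology region (CHR), and CCAAT, the letters bound by NF-Y, on either strand. SPC25 had the lowest log2 difference of the members with MS177 in T47D-TR cells, on the scale of normalized counts, CCNB2 and PLK1 fell in both T47D-TR and BT-549, and CDC25B passed the test in no line.
SPC25: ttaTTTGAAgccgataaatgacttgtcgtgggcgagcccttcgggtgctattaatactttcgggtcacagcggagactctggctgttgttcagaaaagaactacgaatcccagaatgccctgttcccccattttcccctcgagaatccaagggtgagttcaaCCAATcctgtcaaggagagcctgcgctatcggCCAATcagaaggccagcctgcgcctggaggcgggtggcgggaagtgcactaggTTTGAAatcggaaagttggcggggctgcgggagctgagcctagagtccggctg
CCNB2: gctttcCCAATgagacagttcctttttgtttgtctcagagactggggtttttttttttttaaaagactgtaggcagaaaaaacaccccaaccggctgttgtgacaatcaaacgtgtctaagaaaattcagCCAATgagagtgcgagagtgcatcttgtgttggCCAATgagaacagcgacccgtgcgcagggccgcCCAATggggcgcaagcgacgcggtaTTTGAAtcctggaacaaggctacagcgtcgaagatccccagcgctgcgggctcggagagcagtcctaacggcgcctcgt
PLK1: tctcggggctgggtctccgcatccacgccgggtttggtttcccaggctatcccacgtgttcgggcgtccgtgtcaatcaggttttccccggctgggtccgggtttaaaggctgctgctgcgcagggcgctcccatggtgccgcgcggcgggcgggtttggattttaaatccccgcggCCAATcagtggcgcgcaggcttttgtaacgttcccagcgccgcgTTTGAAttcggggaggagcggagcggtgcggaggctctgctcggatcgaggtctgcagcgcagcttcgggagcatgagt
CDC25B: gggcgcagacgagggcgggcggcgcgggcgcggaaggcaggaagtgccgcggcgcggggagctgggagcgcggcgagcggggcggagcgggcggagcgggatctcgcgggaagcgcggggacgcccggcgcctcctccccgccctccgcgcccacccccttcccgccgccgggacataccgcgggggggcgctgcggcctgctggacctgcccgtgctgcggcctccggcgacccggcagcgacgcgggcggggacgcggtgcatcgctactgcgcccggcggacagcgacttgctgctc

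SPC25 held 2 CHR matches and 2 CCAAT matches, CCNB2 held 1 and 4, PLK1 held 1 and 1, and CDC25B held neither set of letters. Over the matched members, 35 of 48 windows (72.9%) held a CHR match, against 16.6% of 27305 promoters of the same length. CCAAT was found in 36 member windows (75.0%), against 35.7% of all promoters. Both were found together in 29 member windows (60.4%) and in 6.58% of all, and at least 2 CCAAT matches in 23 (47.9%) and in 11.3%. Neither was found in 6 member windows, and in 14816 of all promoters. CDC25B is 1 of these 6, but the others, KIF2C, TACC3, CENPE, CKAP2 and CDC25C, fell in T47D-TR. Their log2 differences there were -3.34, -2.75, -2.51, -2.42 and -2.18. In 2 members a CHR match overlapped a CCAAT match. The share with a CHR match was 73.5% (25 of 34) among members lower with MS177 in BT-549 and 71.4% (10 of 14) among those not past the threshold there. These counts describe letters in a fixed window. AURKA, BUB3, CDCA2, RACGAP1, TPX2, TTK and UBE2C had no window in the table.

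Before treatment the members differed widely in level. Per kilobase of exon, UBE2C, the conjugating enzyme of the anaphase promoting complex, CCNB1 (cyclin B1) and TPX2, the activator of Aurora A, stood highest in T47D DMSO cells, at means of 4294, 4187 and 3807 normalized counts. ZWINT, which links the kinetochore to the checkpoint, was highest in T47D-TR at 1763, and CDC20 was highest in BT-549 at 7597. At the low end stood the phosphatase CDC25C in T47D (179 per kilobase), CDCA3, a trigger of mitotic entry, in T47D-TR (49.3) and the kinesin KIF18A in BT-549 (260).

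MS177 lowered nearly the whole module in T47D-TR cells and most of it, by less, in BT-549 cells. In T47D-TR cells 53 of the 55 members were lower than in DMSO and none was higher, against 26.9% of 14555 genes lower. The members' median log2 difference was -2.83 (median fold 7.24), against -0.00168 over all genes, and single members ranged from -4.18 to -0.15. These sizes rest on undoing the transform, which is an assumption for T47D-TR: on the deposited log2 scale as it stands the same number, 53, was lower, with a median of -1.68. The order of members in this line changed too, with CENPF lowest at -2.82 on the deposited scale and SPC25, lowest on the undone scale, in place 42 at -1.36. In BT-549 cells 40 members were lower and none was higher, against 12.6% of 16336 genes lower, with a median of -0.66 (median fold 1.58) and a range of -1.40 to 0.32. In T47D cells the median was -2.001 (median fold 3.86) and the range -3.05 to -0.61, but neither any member nor any of the 17370 genes (0%) passed the threshold. There 53 members and 18.2% of genes had an unadjusted p under 0.05, and limma voom on the recovered reads also called 0 members. The BT-549 count rested in part on 1 DMSO library: without DMSO replicate 2 it was 24 members, and with any other library left out it was 29 to 42. Without MS177 replicate 1 or 2 of T47D 55 or 54 members passed there, against 50.7% or 71.2% of all genes. Groups did not overlap, with both MS177 libraries below both DMSO libraries, for 54 members in T47D-TR (38.9% of all genes), 54 in T47D (28.2%) and 53 in BT-549 (32.5%).

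**Figure D1:**
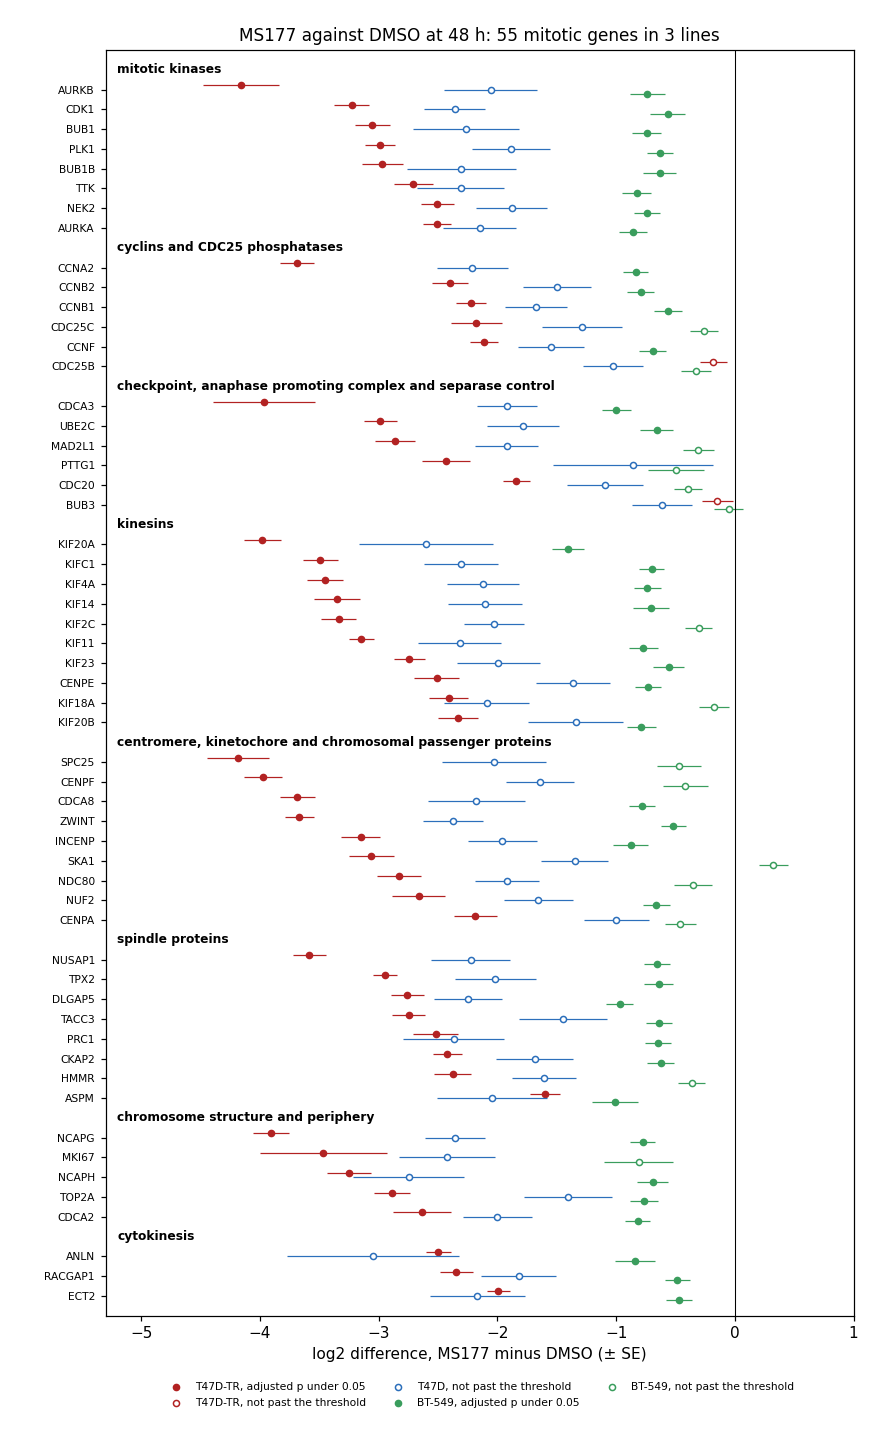
Log2 difference of MS177 and DMSO for each of the 55 genes, grouped by role, in T47D-TR, T47D and BT-549 (points, with 1 SE of the limma fit as bars; 2 libraries a group). Points of T47D-TR spread from -4.18 to -0.15 and those of BT-549 from -1.40 to 0.32, and BUB3 and CDC25B lie nearest 0 in T47D-TR.

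All 8 kinases fell with MS177 in T47D-TR (median log2 difference -2.98) and all 8 fell in BT-549 (median -0.74, range -0.86 to -0.57), while in T47D their median was -2.21. AURKB, the kinase of the chromosomal passenger complex that corrects faulty attachments, had 34.9 and 68.7 normalized counts in the MS177 libraries and 994 and 805 in the DMSO libraries in T47D-TR, a 17.4-fold drop (log2 difference -4.16, SE 0.32, adjusted p = 0.000173). Every MS177 library lay far below both DMSO libraries, and the MS177 libraries themselves differed. AURKA, the centrosomal Aurora kinase and the member of the group with the highest normalized count in DMSO as a mean over the 3 lines, had 332 and 316 with MS177 and 1802 and 1885 with DMSO in T47D-TR (log2 difference -2.50, SE 0.12, adjusted p = 3.44e-05), with no overlap. It had 6139.9 and 6826 with MS177 and 11732 and 11712 with DMSO in BT-549 (log2 difference -0.86, SE 0.12, adjusted p = 0.00837) and 1258 and 1835 with MS177 and 6739 and 6736 with DMSO in T47D (log2 difference -2.15, SE 0.31, adjusted p = 0.13). Groups did not overlap in any of the lines. The polo-like kinase PLK1 fell by 7.95-fold in T47D-TR and 1.55-fold in BT-549, CDK1 by 9.45-fold and 1.48-fold, and the checkpoint kinase TTK by 6.58-fold and 1.77-fold.

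Among cyclins and CDC25 phosphatases, 5 of 6 fell in T47D-TR, and in BT-549 4 of 6 did. The member not past the threshold in T47D-TR was CDC25B. CCNB1, the cyclin that activates CDK1, had 565 and 589 normalized counts in the MS177 libraries and 2917 and 2486 in the DMSO libraries in T47D-TR (log2 difference -2.22, SE 0.12, adjusted p = 5.93e-05). It had 11993 and 12998 with MS177 and 18998 and 17929.5 with DMSO in BT-549 (log2 difference -0.56, SE 0.12, adjusted p = 0.0273) and 3242 and 3479.9 with MS177 and 10474 and 10948 with DMSO in T47D (log2 difference -1.67, SE 0.26, adjusted p = 0.132). MS177 libraries were the lower ones in each line, with no overlap. CCNA2 (cyclin A2, of S and G2 phase) had the lowest difference of the group in both lines that passed, -3.69 in T47D-TR and -0.84 in BT-549. CDC25B, a phosphatase that opens the way into mitosis, had 1254 and 1140.0 normalized counts in the MS177 libraries and 1339 and 1375 in the DMSO libraries in T47D-TR (log2 difference -0.18, SE 0.11, adjusted p = 0.209). Its groups did not overlap there, but lay close to each other. In T47D it had 2228 and 2259 with MS177 and 4743 and 4384 with DMSO (log2 difference -1.02, SE 0.25, adjusted p = 0.179), and in BT-549 its log2 difference was -0.33 (adjusted p = 0.121). CDC25C, its relative, fell in T47D-TR by 4.58-fold and in BT-549 had 1105 and 1208 with MS177 and 1401 and 1372 with DMSO (log2 difference -0.26, SE 0.12, adjusted p = 0.161), with the MS177 libraries lower but not past the threshold.

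On the scale of normalized counts the checkpoint and anaphase genes held the widest range of log2 differences in T47D-TR. They also held the most resistant member. In T47D-TR 5 of 6 fell, and in BT-549 2 of 6 (CDCA3 and UBE2C). CDC20, the activator of the anaphase promoting complex, had 602 and 545 normalized counts in the MS177 libraries and 2110.2 and 1997 in the DMSO libraries in T47D-TR (log2 difference -1.84, SE 0.12, adjusted p = 8.77e-05). It had 11314 and 12214 with MS177 and 15929 and 15037 with DMSO in BT-549 (log2 difference -0.40, SE 0.12, adjusted p = 0.0653) and 3555 and 2384 with MS177 and 6096 and 6337 with DMSO in T47D (log2 difference -1.09, SE 0.32, adjusted p = 0.214). MS177 libraries were lower in each line without overlap, yet on this scale the drop was among the smallest of the module in T47D-TR. CDCA3 stood at the other end on this scale, with 27.0 and 10.4 normalized counts in the MS177 libraries and 297 and 260.4 in the DMSO libraries in T47D-TR (log2 difference -3.97, SE 0.43, adjusted p = 0.000565). It had 1266 and 1409.6 with MS177 and 2795 and 2549 with DMSO in BT-549 (log2 difference -0.998, SE 0.12, adjusted p = 0.00681). On the deposited log2 scale the order of CDC20 and CDCA3 in T47D-TR was reversed, at -1.37 and -1.155. PTTG1 (securin, the inhibitor of separase) fell by 5.43-fold in T47D-TR, but in T47D it had 5014 and 1396 with MS177 and 4467 and 5146 with DMSO (log2 difference -0.86, SE 0.68, adjusted p = 0.53). There 1 MS177 library lay among the DMSO libraries and the other far below them, so the groups overlapped.

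BUB3, which carries BUB1 and BUBR1 to the kinetochore, had the log2 difference nearest 0 of the module with MS177 in T47D-TR, T47D and BT-549. It had 1826 and 1606 normalized counts in the MS177 libraries and 2062 and 1747 in the DMSO libraries in T47D-TR (log2 difference -0.15, SE 0.13, adjusted p = 0.371). The values in BT-549 were 5291 and 5850.4 with MS177 and 6107 and 5455 with DMSO (log2 difference -0.05, SE 0.12, adjusted p = 0.784). In T47D they were 3004 and 2984 with MS177 and 4413 and 4745 with DMSO (log2 difference -0.61, SE 0.25, adjusted p = 0.301). Groups overlapped in T47D-TR and BT-549 and did not in T47D. The 95% interval of the log2 difference ran from -0.46 to 0.17 in T47D-TR and from -0.36 to 0.26 in BT-549, so a fall of the size of the module's median lay outside it in both. MAD2L1 (MAD2), which acts beside BUB3 in the same checkpoint, fell by 7.38-fold in T47D-TR and had a log2 difference of -0.31 (adjusted p = 0.143) in BT-549.

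All 10 kinesins fell in T47D-TR (median log2 difference -3.24) and 8 of 10 in BT-549 (median -0.72). KIF20A (chr5:138178719-138187715, plus strand) is the motor that carries the passenger complex to the central spindle. On the scale of normalized counts KIF20A ranked 3, 3 and 1 of 55 from the lowest in T47D-TR, T47D and BT-549. It had 82.7 and 69.8 normalized counts in the MS177 libraries and 1202 and 1224 in the DMSO libraries in T47D-TR, a 15.9-fold drop (log2 difference -3.98, SE 0.16, adjusted p = 2.59e-05). It had 3504 and 2888 with MS177 and 8188 and 8657 with DMSO in BT-549, 2.64-fold (log2 difference -1.40, SE 0.14, adjusted p = 0.00411), and 370.4 and 1046 with MS177 and 3894 and 3691 with DMSO in T47D (log2 difference -2.60, SE 0.56, adjusted p = 0.158). Both MS177 libraries were below both DMSO libraries in every line, and in T47D they differed among themselves by more than the DMSO libraries did. KIF11 (Eg5), which pushes the spindle poles apart, had 377 and 382 with MS177 and 3290.3 and 3438 with DMSO in T47D-TR (log2 difference -3.15, SE 0.11, adjusted p = 2.22e-05). Its values were 3892 and 3536 with MS177 and 5986 and 6696 with DMSO in BT-549 (log2 difference -0.77, SE 0.12, adjusted p = 0.0128) and 1052 and 1755 with MS177 and 6849 and 6710.4 with DMSO in T47D (log2 difference -2.32, SE 0.35, adjusted p = 0.132). None of these groups overlapped.

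The 2 kinesins not past the threshold in BT-549 were KIF2C (MCAK), which takes microtubule ends apart, and KIF18A, which dampens the swing of aligned chromosomes. KIF2C had 7685 and 8477 normalized counts in the MS177 libraries and 10036 and 9902 in the DMSO libraries (log2 difference -0.30, SE 0.12, adjusted p = 0.113), and KIF18A had 1123 and 1018 normalized counts in the MS177 libraries and 1157 and 1267 in the DMSO libraries (log2 difference -0.18, SE 0.13, adjusted p = 0.346). The MS177 libraries were lower than both DMSO libraries for each of them, by a small step. In T47D-TR the same genes fell by 10.2-fold and 5.37-fold.

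**Figure D2:**
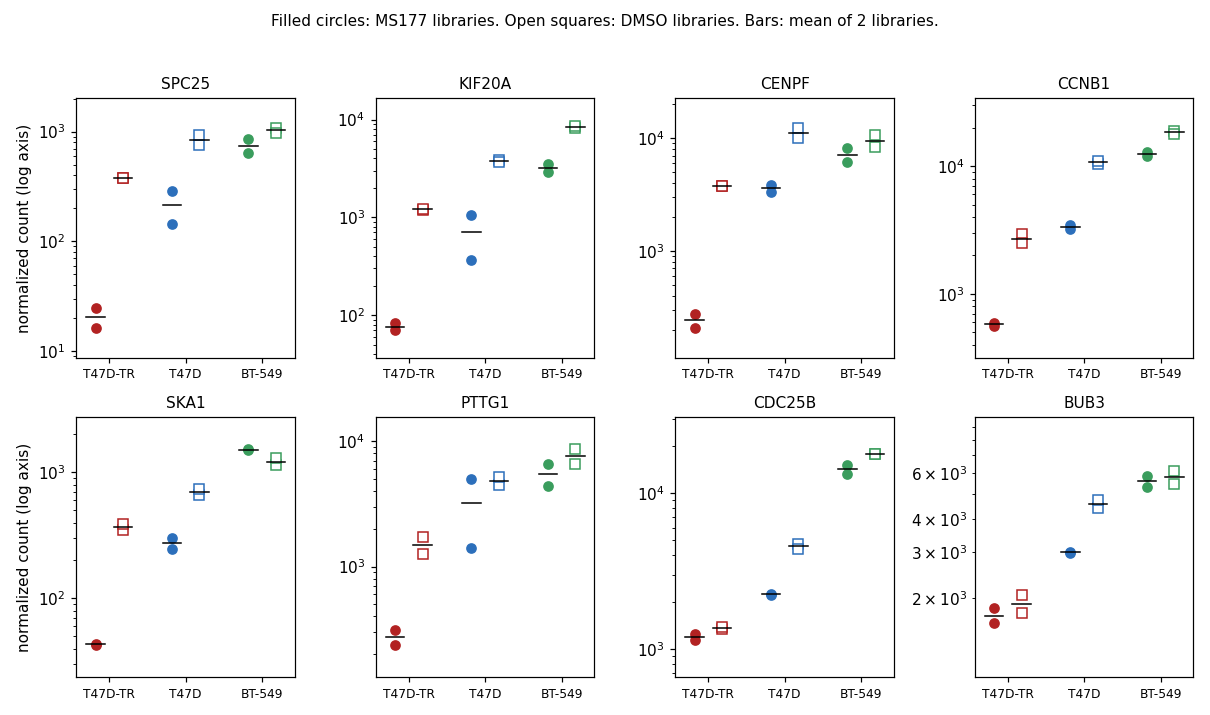
Normalized counts in every MS177 (circles) and DMSO (squares) library for 8 genes in the 3 lines, on a log axis. Of the 8, SPC25 and KIF20A drop most in T47D-TR, SKA1 is higher with MS177 in BT-549 (1524 and 1508, against 1143 and 1288 in DMSO), and the 2 MS177 libraries of T47D lie far apart for PTTG1.

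Centromere, kinetochore and passenger genes all fell in T47D-TR (9 of 9, median log2 difference -3.15), but only 4 of 9 fell in BT-549 (CDCA8, INCENP, NUF2 and ZWINT; median -0.47). SPC25, a subunit of the NDC80 complex that binds microtubules, had the lowest log2 difference of all 55 genes in T47D-TR on this scale, with 16.1 and 24.5 normalized counts in the MS177 libraries and 378 and 379 in the DMSO libraries, an 18.7-fold drop (log2 difference -4.18, SE 0.26, adjusted p = 8.41e-05). Its 2 MS177 libraries were far below DMSO, at low counts in a line of unknown depth. Its log2 difference in BT-549 was -0.47 (adjusted p = 0.122). CENPF, a large kinetochore protein with the highest normalized count of the group in DMSO as a mean over the 3 lines, had 276 and 207 with MS177 and 3751 and 3764 with DMSO in T47D-TR (log2 difference -3.97, SE 0.16, adjusted p = 2.6e-05). In BT-549 it had 8148 and 6151 with MS177 and 8424 and 10612 with DMSO (log2 difference -0.42, SE 0.19, adjusted p = 0.171) and in T47D 3299 and 3856 with MS177 and 12278 and 10117 with DMSO (log2 difference -1.64, SE 0.29, adjusted p = 0.132). MS177 libraries were again the lower ones in each line, without overlap. INCENP, the scaffold of the passenger complex, had 2251 and 2093 with MS177 and 3563 and 4466 with DMSO in BT-549 (log2 difference -0.88, SE 0.15, adjusted p = 0.015). Values in T47D were 1476 and 1465 with MS177 and 7527 and 7706 with DMSO for ZWINT (log2 difference -2.37, SE 0.25, adjusted p = 0.117) and 379 and 342 with MS177 and 657 and 788 with DMSO for CENPA, the centromeric histone H3 variant (log2 difference -0.998, SE 0.27, adjusted p = 0.2). ZWINT had close MS177 values in T47D and the smallest adjusted p of the module there.

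SKA1, a subunit of the complex that holds kinetochores to shrinking microtubules, was the member with the highest difference in BT-549. It had 1524 and 1508 normalized counts in the MS177 libraries and 1143 and 1288 in the DMSO libraries (log2 difference 0.32, SE 0.12, adjusted p = 0.115), so both MS177 libraries lay above both DMSO libraries without passing the test. SKA1 fell in T47D-TR, with 43.7 and 42.8 with MS177 and 347 and 392 with DMSO (log2 difference -3.06, SE 0.19, adjusted p = 8.32e-05). In T47D its values were 302 and 245 with MS177 and 658 and 736 with DMSO (log2 difference -1.35, SE 0.28, adjusted p = 0.149).

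All 8 spindle genes fell in T47D-TR (median log2 difference -2.63) and 7 of 8 in BT-549 (median -0.65), with HMMR, a spindle assembly factor, not past the threshold (-0.36, adjusted p = 0.0696). TPX2, which activates Aurora A on the spindle, had 603 and 588 normalized counts in the MS177 libraries and 4526 and 4668 in the DMSO libraries in T47D-TR (log2 difference -2.95, SE 0.10, adjusted p = 2.22e-05). It had 15209 and 14033 with MS177 and 22077 and 23518 with DMSO in BT-549 (log2 difference -0.64, SE 0.12, adjusted p = 0.0205) and 2689 and 4264 with MS177 and 13627 and 13823 with DMSO in T47D (log2 difference -2.02, SE 0.34, adjusted p = 0.132). No groups overlapped. On this scale ASPM, a spindle pole protein, fell least of the members past the threshold in T47D-TR, with 483 and 455 with MS177 and 1331 and 1521 with DMSO (log2 difference -1.60, SE 0.13, adjusted p = 0.000194). It was the second lowest in BT-549, with 4943 and 3765 with MS177 and 7628 and 9863 with DMSO (log2 difference -1.01, SE 0.19, adjusted p = 0.0216). DLGAP5 (HURP), which steadies kinetochore fibres, had 2763 and 2509 with MS177 and 5012 and 5317 with DMSO in BT-549 (log2 difference -0.97, SE 0.12, adjusted p = 0.00604). ASPM thus held rank 53 in T47D-TR and 2 in BT-549 on the scale of normalized counts. On the deposited log2 scale it held rank 50 in T47D-TR (-1.12), where CDC25C (-0.72), CENPA (-0.87) and NUF2 (-1.06) fell less.

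Chromosome structure genes fell as a group in T47D-TR (5 of 5, median log2 difference -3.25), and 4 of 5 fell in BT-549 (median -0.78). TOP2A, the topoisomerase that untangles sister chromatids, had 791 and 1057 normalized counts in the MS177 libraries and 6736 and 6781 in the DMSO libraries in T47D-TR (log2 difference -2.89, SE 0.15, adjusted p = 4.82e-05). It had 21647 and 21534 with MS177 and 37091 and 36347 with DMSO in BT-549 (log2 difference -0.77, SE 0.12, adjusted p = 0.0123) and 10956 and 6714 with MS177 and 22697 and 22687 with DMSO in T47D (log2 difference -1.40, SE 0.37, adjusted p = 0.196). The groups did not overlap in any line. NCAPH, of condensin I, had 145 and 326 with MS177 and 1481 and 1453 with DMSO in T47D (log2 difference -2.75, SE 0.47, adjusted p = 0.132), and MKI67 (Ki-67, the coat of mitotic chromosomes) had 1231 and 2130.0 with MS177 and 10359 and 7326 with DMSO there (log2 difference -2.43, SE 0.40, adjusted p = 0.132). MKI67 was the 1 gene of this group not past the threshold in BT-549 (log2 difference -0.81, adjusted p = 0.104), although its difference was larger than the module's median.

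The 3 cytokinesis genes fell in T47D-TR (median log2 difference -2.35) and in BT-549 (median -0.49). ANLN (anillin, the scaffold of the cleavage furrow) had 586 and 575 normalized counts in the MS177 libraries and 3238 and 3319 in the DMSO libraries in T47D-TR (log2 difference -2.50, SE 0.10, adjusted p = 2.65e-05). It had 6574 and 5425 with MS177 and 9563 and 11977 with DMSO in BT-549 (log2 difference -0.84, SE 0.17, adjusted p = 0.0233). In T47D it was the lowest of all 55 genes, with 647 and 2604 with MS177 and 11158 and 10335 with DMSO, with replicate 1 at 0.248 of the level of replicate 2 (log2 difference -3.05, SE 0.73, adjusted p = 0.174). ECT2, the activator of RhoA at the furrow, had 1217 and 1204 with MS177 and 4885 and 4753 with DMSO in T47D-TR (log2 difference -1.99, SE 0.10, adjusted p = 4.15e-05), among the smallest drops there on this scale. On the scale of normalized counts, spindle and furrow members with small and large drops in T47D-TR stood side by side. ASPM and ECT2 were at one end and KIF20A at the other. On the deposited log2 scale ASPM stood in place 50 from the lowest (-1.12), ECT2 in place 25 (-1.70) and KIF20A in place 11 (-2.07).

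In T47D-TR 53 members were lower with any 1 library left out. A short list of 7 histone genes of the replication-dependent clusters, picked by name, moved the other way in this polyadenylated RNA. With MS177 7 of 7 were higher in T47D-TR (median log2 difference 2.38) and, in BT-549, 4 of 7 (median 0.67). Of all genes 54.6% and 24% passed the threshold there, counting both directions. In T47D the median of these histone genes was 1.87, with none past the threshold (0% of genes). Mitochondrial transcripts made up 1.69% and 1.39% of counts in the MS177 libraries of BT-549 and 2.44% and 2.37% in its DMSO libraries, without overlap, and in T47D-TR 1.90% and 1.97% with MS177 and 1.60% and 2.04% with DMSO. The part of either in the members' values was not tested.

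In T47D the 2 MS177 libraries differed from each other gene by gene. As a share of the DMSO level, the members' median ratio was 0.221 in MS177 replicate 1 and 0.290 in replicate 2. Of the 55 genes, 33 were lower in replicate 1 and 22 were lower in replicate 2, and 25 differed by more than 1.5-fold between them. ANLN, KIF20A, NCAPH and BUB1B stood lowest in replicate 1 relative to replicate 2 (ratios 0.248, 0.354, 0.446 and 0.453). PTTG1, SPC25, KIF20B and AURKB stood highest (ratios 3.59, 2.01, 1.91 and 1.85). Genes of the same complex split in opposite directions, such as AURKB and its passenger partner CDCA8 (ratio 0.512). Mitochondrial transcripts made up 2.99% and 5.37% of counts in MS177 replicates 1 and 2, against 5.69% and 5.91% in DMSO, and their part was not tested. Without MS177 replicate 1 all 55 members passed the threshold, and 54 did without replicate 2, with the remaining MS177 library assumed to vary like the DMSO libraries. In a fit over all libraries of the line 54 members passed, with PTTG1 the exception, against 18.2% of genes.

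**Figure D3:**
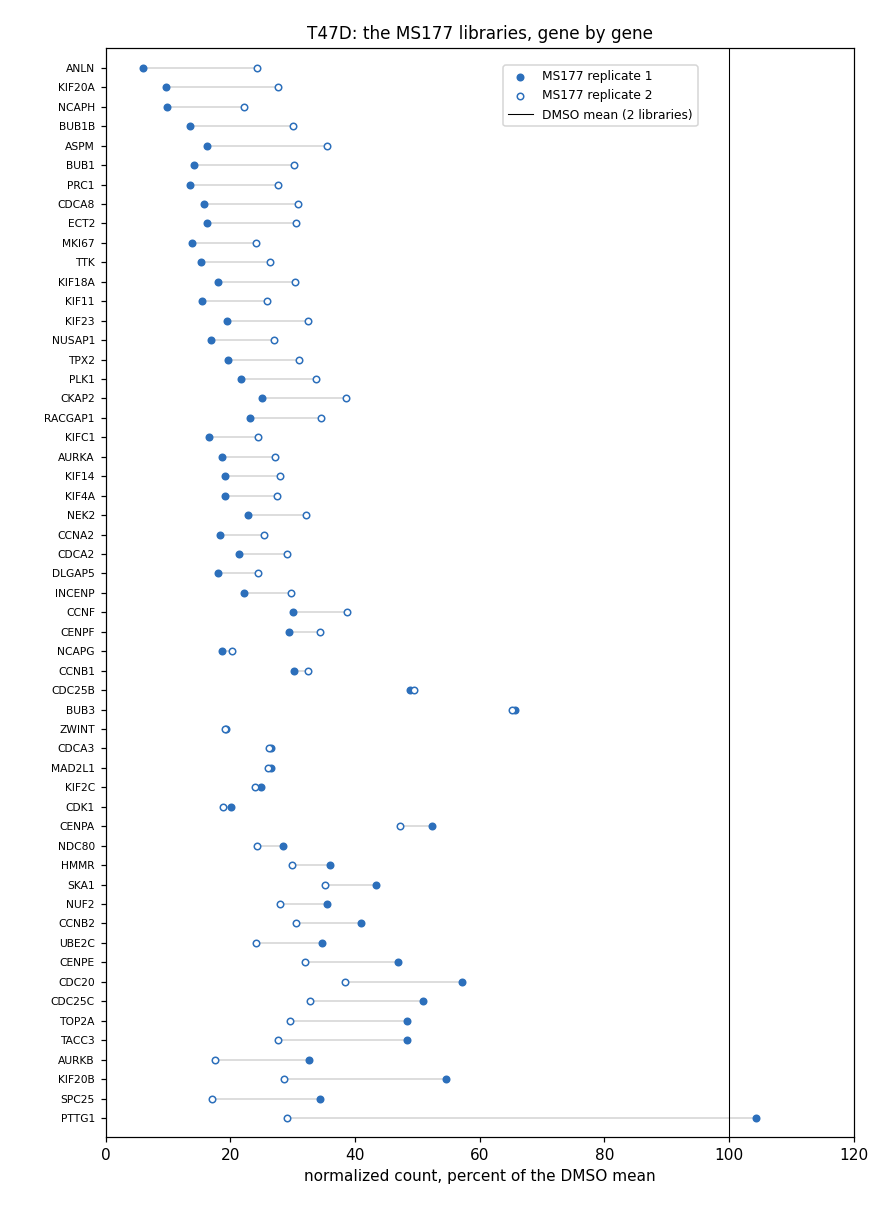
The 2 MS177 libraries of T47D for each gene, as percent of the mean of the DMSO libraries (line at 100), ordered by the ratio of replicate 1 to replicate 2. ANLN is at the top, far lower in replicate 1, and PTTG1 at the bottom is above the DMSO mean in replicate 1 only.

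The responses of the lines were compared by the difference of their log2 differences, in 1 interaction fit per pair of lines. T47D-TR fell further than BT-549 for 52 of the 55 genes, against 16.3% of 12887 genes, with a median difference of -2.23. On the deposited log2 scale 47 were lower, with a median of -1.02, and CENPF differed most (-2.41). On that scale SPC25 differed by -0.94, in place 32 of 55, and AURKB by -1.18, in place 17. After undoing the transform SPC25 differed most, with a log2 difference of -4.18 in T47D-TR and -0.47 in BT-549 (difference -3.71, SE 0.32, adjusted p = 0.000237). CENPF differed by -3.55 (adjusted p = 0.000143), AURKB by -3.43 (adjusted p = 0.000938), SKA1 by -3.38 (adjusted p = 5.28e-05) and ZWINT by -3.15 (adjusted p = 4.21e-05). The 3 genes not past the threshold were ASPM (-0.59, adjusted p = 0.106), BUB3 (-0.10, adjusted p = 0.728) and CDC25B (0.15, adjusted p = 0.496).

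The log2 difference was lower in T47D than in BT-549 for 6 genes past the threshold, against 0.787% of 15506 genes, with a median difference of -1.32. They were ZWINT (-1.85, adjusted p = 0.0241), CDK1 (-1.79, adjusted p = 0.0348), KIF2C (-1.72, adjusted p = 0.0295), SKA1 (-1.67, adjusted p = 0.039), MAD2L1 (-1.61, adjusted p = 0.0387) and NCAPG (-1.58, adjusted p = 0.0313). This count depended on single libraries: it was 48 without either MS177 library of T47D (14.1% and 46.6% of genes without replicate 1 and 2) and 0 without any one of the DMSO libraries of either line or the MS177 libraries of BT-549. Between T47D-TR and T47D no member passed the threshold, against 0.0289% of 13855 genes, and 29 members had an unadjusted p under 0.05, against 12.3% of genes. The direction between these lines depended on the scale: the median difference was -0.93, with 50 members lower in T47D-TR, after undoing the transform, and 0.21, with 17 lower, on the deposited log2 scale. The smallest adjusted p there was that of CENPF (-2.33, adjusted p = 0.0627). Leaving out MS177 replicate 1 or 2 of T47D gave 33 or 39 members, against 12.3% or 39.9% of genes.

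Of the 55 genes, 40 were lower in both T47D-TR and BT-549 (75.5% of the 53 of T47D-TR and 100% of the 40 of BT-549), 13 in T47D-TR alone by the threshold, 0 in BT-549 alone and 2, BUB3 and CDC25B, in neither. Across the 55 genes the order of the log2 differences was shared in part: Pearson's r was 0.585 (Spearman's rho 0.548) between T47D-TR and T47D, 0.501 (0.448) between T47D and BT-549 and 0.347 (0.279) between T47D-TR and BT-549. These are correlations across genes of the same libraries, and genes are not independent replicates. The SD of the log2 differences over members was 0.81 in T47D-TR, 0.48 in T47D and 0.26 in BT-549, and the SE of single members ran from 0.10 to 0.53, from 0.25 to 0.73 and from 0.10 to 0.29 in the same order. These SDs and correlations are given on the scale of normalized counts only, which is an assumption for T47D-TR. On the deposited log2 scale the members of T47D-TR lay closer together, from -2.82 (CENPF) to -0.12 (BUB3). How far the wider spread in T47D-TR rests on the scale was not tested.

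The negative controls and C24 moved few members. In T47D-TR MS177-N1 lowered 2 members and raised 5, against 7.39% of 14038 genes lower and 9.92% higher. As shares of the members, 3.64% and 9.09%, these are below those of all genes. KIF20A was lower, with 717 and 530.0 normalized counts in the MS177-N1 libraries and 1056 and 1065 in the DMSO libraries (log2 difference -0.78, SE 0.18, adjusted p = 0.0206), and so was NUSAP1, a microtubule bundler, with 1479.7 and 1239.5 with MS177-N1 and 1958 and 2294 with DMSO (log2 difference -0.65, SE 0.16, adjusted p = 0.0244). SPC25 was higher, with 489.5 and 596 with MS177-N1 and 279.9 and 278 with DMSO (log2 difference 0.95, SE 0.17, adjusted p = 0.0125). None of these 3 genes had overlapping groups. PTTG1 was higher, with 2260.3 and 2711 with MS177-N1 and 1528 and 1103 with DMSO (log2 difference 0.93, SE 0.18, adjusted p = 0.0143), and UBE2C with 2090.2 and 3117 with MS177-N1 and 1625 and 1353 with DMSO (log2 difference 0.78, SE 0.20, adjusted p = 0.0308). AURKB (0.59, adjusted p = 0.0462) and TOP2A (0.51, adjusted p = 0.047) were higher too. The call count went to 0 without MS177-N1 replicate 2, without DMSO replicate 2, with no trend and in a fit over all libraries of the line.

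No member passed the threshold with any of the other compounds at 48 h (limma, with voom also at 0 in T47D and BT-549). In T47D the share of all genes past it was 0.0651% with MS177-N1, 0% with MS177-N2 and 0.574% with C24. In T47D-TR it was 0.111% with MS177-N2 and 0.014% with C24. In BT-549 it was 0% with MS177-N1, 2.12% with MS177-N2 and 0.165% with C24. In the same order, at an unadjusted p under 0.05 stood 1, 0 and 1 members in T47D, against 2.99%, 5.54% and 12.3% of genes, and 1 and 1 in T47D-TR, against 5.8% and 1.92% of genes. In BT-549 0, 11 and 4 members did, against 2.45%, 20.4% and 11.3% of genes, so that the 11 members with MS177-N2 (20%) were a share near that of all genes. The members' median log2 differences, again in that order, were -0.05, -0.03 and -0.07 in T47D, -0.10 and -0.18 in T47D-TR, and -0.02, -0.11 and -0.02 in BT-549. Single members went both ways, from -0.30 to 0.13 in T47D, from -0.56 to 0.30 in T47D-TR and from -0.49 to 0.68 in BT-549. Leaving out DMSO replicate 1 of T47D gave 4 members with MS177-N2 and 5 with C24, against 4.86% and 12.1% of genes. In BT-549 leaving out DMSO replicate 2 gave 2 members with MS177-N2 and 1 with C24, against 9.05% and 5.52% of genes, and leaving out a compound library gave 1 (MS177-N1 replicate 1), 1 (MS177-N2 replicate 2) and 2 (C24 replicate 2), against 1.29%, 6.71% and 3.74% of genes.

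**Figure D4:**
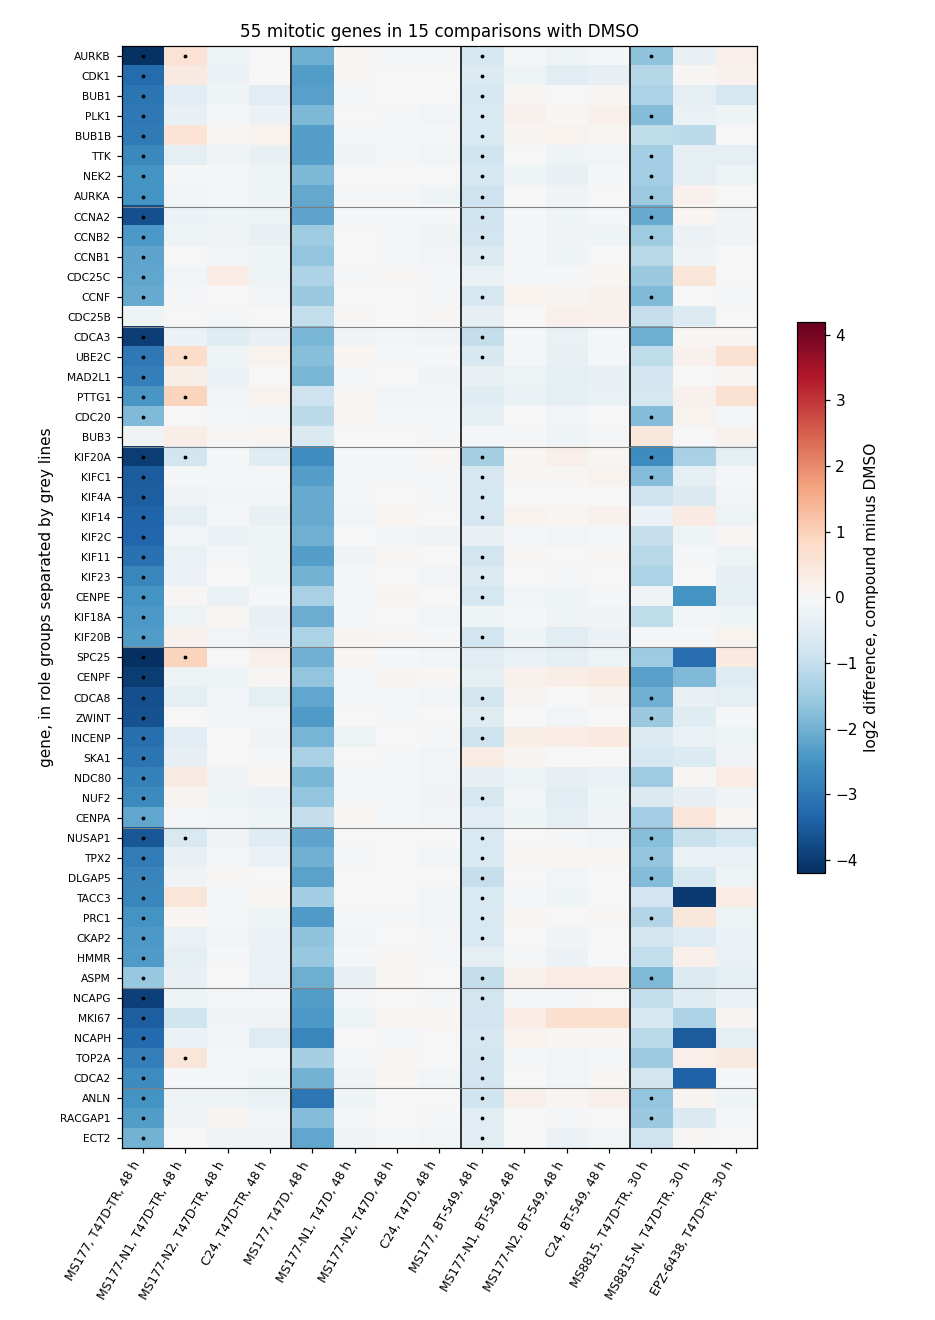
Log2 difference of compound and DMSO for the 55 genes (down the page, by role) in the 15 comparisons (across), with a dot where the adjusted p is under 0.05. Dense dots fill the MS177 columns of T47D-TR (53) and BT-549 (40), 20 stand in the MS8815 column and 7 in that of MS177-N1 in T47D-TR.

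MS177 was set against its own controls and C24 at the same dose and time in 9 pairs, and MS8815 against its control and EPZ-6438 in another 2, so 11 pairs in all, each adjusted over all genes of its fit. All groups of a line and time entered each fit. MS177 differs from MS177-N1 and MS177-N2 by changes that the labels do not describe. In T47D-TR 54 members were lower than with MS177-N1, 53 than with MS177-N2 and 53 than with C24 (26.7%, 24.5% and 25.7% of genes lower). The members not past the threshold were CDC25B in all 3 pairs and BUB3 against MS177-N2 and C24. BUB3 was lower than with MS177-N1, by -0.43 (adjusted p = 0.0415). SPC25 had the largest difference from MS177-N1, with 16.1 and 24.5 normalized counts with MS177 and 664 and 808 with MS177-N1 (log2 difference -5.14, SE 0.33, adjusted p = 4.45e-06). AURKB differed from MS177-N1 by -4.75 (adjusted p = 3.94e-06), CENPF by -3.76 (adjusted p = 2.39e-05), NCAPG by -3.74 (adjusted p = 9.55e-07) and UBE2C by -3.77 (adjusted p = 4.08e-06). The same 4 genes SPC25, AURKB, CENPF and NCAPG were among the 5 largest differences in each of these pairs. Against MS177-N2 SPC25 differed by -4.19 (adjusted p = 1.59e-05), AURKB by -3.97 (adjusted p = 1.3e-05) and KIF20A by -3.88 (adjusted p = 1.04e-06). Against C24 SPC25 differed by -4.40 (adjusted p = 1.16e-05), AURKB by -4.19 (adjusted p = 8.86e-06) and CDCA3 by -3.67 (adjusted p = 6.1e-05).

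In BT-549 40 members were lower with MS177 when set against MS177-N1, 38 against MS177-N2 and 43 against C24 (17.7%, 19.4% and 18.9% of genes lower). Higher were 0, 1 and 1 members (15.4%, 17.8% and 16.8% of genes). KIF20A was the lowest or next to it in each pair, at -1.46 (adjusted p = 0.000209) against MS177-N1, -1.61 (adjusted p = 0.000119) against MS177-N2 and -1.46 (adjusted p = 0.000185) against C24. MKI67 differed by -1.49 (adjusted p = 0.0156) against MS177-N2 and -1.49 (adjusted p = 0.0158) against C24. ASPM, INCENP and ANLN were among the 5 largest differences of each pair, at -1.20, -1.11 and -1.04 against MS177-N1. The higher member was SKA1, which couples kinetochores to microtubules and is named after its values were seen, with 1524 and 1508 normalized counts with MS177 and 1227 and 1198 with MS177-N2 (log2 difference 0.32, SE 0.11, adjusted p = 0.0446). With C24 it had 1174 and 1249 (adjusted p = 0.0452), and against MS177-N1 its difference was 0.20 (adjusted p = 0.188). Both calls were lost with quantile scaling, with no trend, with the compared libraries alone, with the replicate block and with any 1 library of the pair left out (adjusted p = 0.0569 to 0.195). Each SKA1 value with MS177 lay above each value with the control compounds, with DMSO and with C24. BUB3 did not pass in any pair of this line, with 95% intervals of -0.23 to 0.31 against MS177-N1, -0.15 to 0.38 against MS177-N2 and -0.24 to 0.30 against C24.

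In T47D 49 members were lower with MS177 when set against MS177-N1, 54 against MS177-N2 and 54 against C24 (5%, 9.09% and 11% of genes lower). PTTG1 did not pass in any of these pairs, and ANLN, ASPM, KIF20B, TACC3 and BUB3 did not pass against the single MS177-N1 library. ANLN differed by -3.03 (adjusted p = 0.0226) against MS177-N2 and -3.05 (adjusted p = 0.0202) against C24, NCAPH by -2.68 (adjusted p = 0.00756) and -2.75 (adjusted p = 0.0064), and KIF20A by -2.54 (adjusted p = 0.0166) and -2.64 (adjusted p = 0.0135). Against MS177-N1 the largest differences past the threshold were those of NCAPH (-2.77, adjusted p = 0.0194), KIF20A (-2.57, adjusted p = 0.0429), CDK1 (-2.42, adjusted p = 0.00356), ZWINT (-2.39, adjusted p = 0.00356) and PRC1, which crosslinks spindle microtubules (-2.27, adjusted p = 0.0237). With the compared libraries alone in the fit 0 members passed in each of these pairs, and without 1 library of MS177-N2 or C24 4 to 8 passed.

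MS8815 lowered part of the module in T47D-TR cells at 30 h. Of the 55 genes 20 were lower than in DMSO and none was higher, against 2.18% of 13456 genes lower. Their median log2 difference was -1.30 against -0.01 over all genes, 50 had both MS8815 libraries below both DMSO libraries (31.7% of genes), and 47 had an unadjusted p under 0.05 (28.5% of genes). The count of members past the threshold was 54 without MS8815 replicate 1 (44.9% of all genes), 49 without replicate 2 (56.5%), and 0 without either DMSO library, and it was 0 in a fit over all 30 h libraries. Mitochondrial transcripts made up 1.44% and 1.04% of counts in the MS8815 libraries and 0.805% and 0.727% in the DMSO libraries, and their part was not tested. By role, 5 of 8 kinases fell, 3 of 6 cyclins and phosphatases, 1 of 6 checkpoint genes, 2 of 10 kinesins, 2 of 9 centromere and kinetochore genes, 5 of 8 spindle genes, 0 of 5 chromosome structure genes and 2 of 3 cytokinesis genes. KIF20A had 139 and 59.0 normalized counts in the MS8815 libraries and 566 and 575 in the DMSO libraries (log2 difference -2.64, SE 0.45, adjusted p = 0.0485), CCNA2 had 326 and 231 with MS8815 and 1227 and 1143 with DMSO (log2 difference -2.10, SE 0.25, adjusted p = 0.0351), and CDCA8 (borealin, of the passenger complex) had 157 and 142 with MS8815 and 610.0 and 597 with DMSO (log2 difference -2.004, SE 0.21, adjusted p = 0.0315). The groups of these 3 genes lay clearly apart. CENPF had 226 and 90.2 with MS8815 and 999 and 486 with DMSO (log2 difference -2.28, SE 0.58, adjusted p = 0.0881), and CDCA3 had 66.7 and 23.8 with MS8815 and 150.4 and 186 with DMSO (log2 difference -2.04, SE 0.55, adjusted p = 0.0966). Their MS8815 libraries were both lower, but spread widely.

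At the other end stood genes with no fall past the threshold. BUB3 had 1693 and 1662 normalized counts in the MS8815 libraries and 1229 and 1194 in the DMSO libraries (log2 difference 0.47, SE 0.19, adjusted p = 0.195), so both MS8815 libraries lay above DMSO. INCENP had 442 and 286 with MS8815 and 476 and 583 with DMSO (-0.57, adjusted p = 0.278), and KIF14, a motor of cytokinesis, had 147 and 91.4 with MS8815 and 127 and 150.2 with DMSO (-0.25, adjusted p = 0.657). CENPE, the motor that brings chromosomes to the equator, had 115 and 33.5 with MS8815 and 69.7 and 69.9 with DMSO (-0.16, adjusted p = 0.885), and KIF20B, also of cytokinesis, had 707 and 205 with MS8815 and 368 and 425 with DMSO (-0.06, adjusted p = 0.96). For CENPE and KIF20B MS8815 replicate 1 was far above DMSO and replicate 2 far below, so that without replicate 2 their log2 differences were 0.71 and 0.84. HSP90AA1, a chaperone gene named after its values were seen, made up 12.4% of counts in MS8815 replicate 1, which listed 4.93% of genes at 0.

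**Figure D5:**
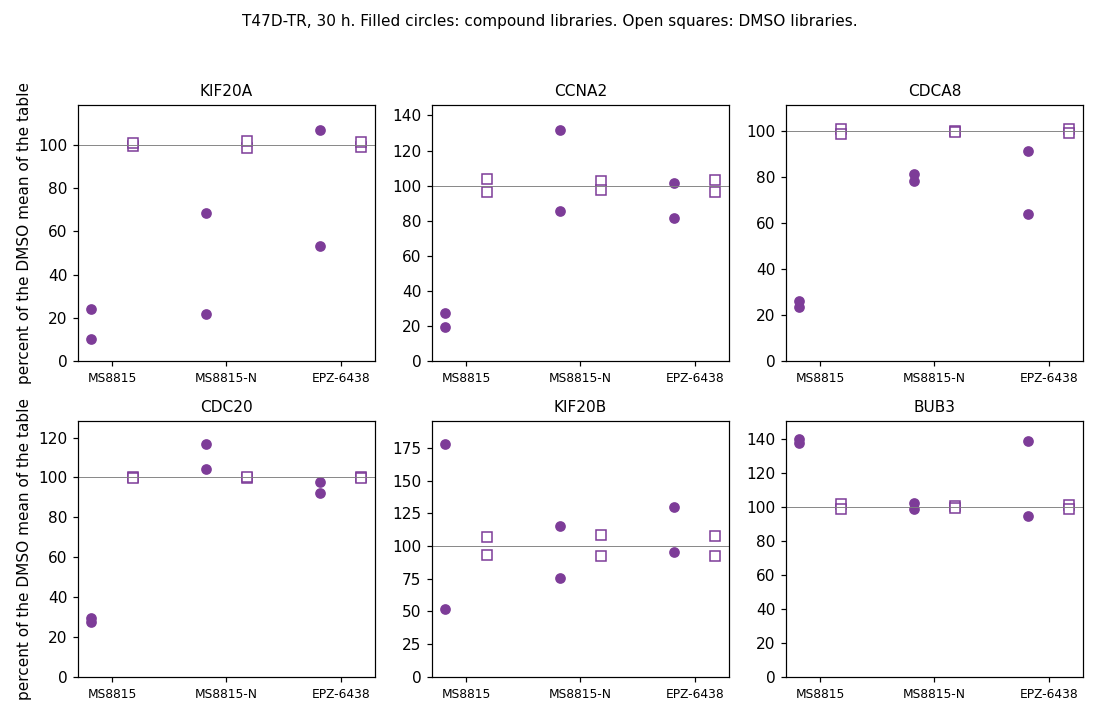
Each MS8815, MS8815-N, EPZ-6438 and DMSO library of T47D-TR at 30 h for 6 genes, as percent of the DMSO mean. KIF20A, CCNA2, CDCA8 and CDC20 are below DMSO in both MS8815 libraries, KIF20B is split and BUB3 is above.

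Both degraders were given at 2.5 uM, but for 30 h (MS8815) and 48 h (MS177) with different DMSO shares, so the levels they left in T47D-TR are set side by side without a comparison. CDC20 stood at 28.3% of its DMSO level with MS8815 and 27.9% with MS177, ASPM at 28.2% and 32.9%, and CCNF (cyclin F, of a ubiquitin ligase) at 27.9% and 23.1%. The condensin subunit NCAPG stood at 48.7% with MS8815 and 6.57% with MS177, and the chromokinesin KIF4A at 54.6% and 9.07%. BUB3 stood at 138% and 90.1%.

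No member passed the threshold with MS8815-N or EPZ-6438 against DMSO (limma, 0% of genes in each), and 3 and 0 members had an unadjusted p under 0.05, against 2.51% and 1.36% of genes. The member medians were -0.29 with MS8815-N, where the median of all genes was -0.24, and -0.13 with EPZ-6438. In MS8815-N replicate 2, CENPE, SPC25, TACC3, CDCA2 and NCAPH were listed at 0. Without that library 24 members passed with MS8815-N, and without MS8815-N replicate 1 41 did, while without EPZ-6438 replicate 1 23 passed with EPZ-6438. These counts stand against 39.7%, 78.3% and 38.1% of all genes in the same fits, in which 1 compound library is assumed to vary like the DMSO libraries. Between MS8815 and its control, and between MS8815 and EPZ-6438, 0 members passed (0.0574% and 0.108% of 13926 genes called), with 30 and 32 members and 13.2% and 8.21% of genes at an unadjusted p under 0.05. The median over all genes of MS8815 minus MS8815-N was 0.52, against -1.01 over members. CDC20 had 488 and 452 normalized counts with MS8815 and 1727 and 1934 with MS8815-N (log2 difference -1.96, 95% interval -2.57 to -1.35, adjusted p = 0.0784), and differed from EPZ-6438 by -1.74 (adjusted p = 0.127). Without the MS8815-N library with many zeros 17 members passed against EPZ-6438 (3.97% of genes), and without MS8815-N replicate 1 32 passed against MS8815-N (56% of genes).

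FOXM1, a transcription factor named in the study's title that acts on many of the members, moved in the same direction. It had 231 and 234 normalized counts in the MS177 libraries of T47D-TR and 1326 and 1593 in DMSO (log2 difference -2.64, adjusted p = 5.07e-05), and a log2 difference of -0.68 in BT-549 (adjusted p = 0.0218). In T47D its log2 difference was -1.81 (adjusted p = 0.132), not past the threshold. A further list of 72 genes of mitosis that are no members was read the same way. With MS177 63 were lower and 2 higher of 70 tested in T47D-TR (median log2 difference -2.50), against 26.9% of all genes lower. In BT-549 29 were lower and 0 higher of 72 (median -0.40), against 12.6% of genes lower. In T47D 0 were past the threshold (median -1.66, 68 below 0), as were 0% of genes. With MS8815 11 of 70 were lower and 0 higher (median -0.79), against 2.18% of genes lower. With MS177-N1 in T47D-TR 7 of 70 were lower and 7 higher, shares near the 7.39% and 9.92% of all genes.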

How the data were processed

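RNA-seq of polyadenylated RNA from 38 samples was read from 15 tables, each holding 1 compound beside DMSO of the same line and time. The values in the deposited tables are log2 values, made by the authors within each table. RSEM, DESeq and hg38 are named in the submitters' processing notes, with no role, order or version, and the aligner is not given in the sources used here. The log2 values were taken as a variance-stabilizing transform and undone to give normalized counts. For T47D and BT-549, 100% of values up to 1000 reads came out as whole reads (within 0.05 of a read). For T47D-TR 10.1 to 49.7% did, so that depth is unknown there and the scale is an assumption. Only 1 deposited column was not used: in the T47D MS177-N1 table it repeated MS177-N2 replicate 2, so that this group had 1 library, assumed to vary like the DMSO libraries.

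Tests used limma 3.58.1 (R 4.3.3) with mean trend and robust empirical Bayes on log2(normalized count + 1). Genes were tested if 2 or more libraries had 10 or more normalized counts, with Benjamini-Hochberg adjustment over all such genes and a threshold of 0.05. Comparisons with DMSO used the libraries of 1 table. Compound pairs used all libraries of a line and time, with tables put on 1 scale by their common DMSO libraries. Line differences were interaction terms over MS177 and DMSO. The fits were also run on simulated counts modelled on MS177 in BT-549 and C24 in T47D, with a fixed spread. The simulated counts did not cover the T47D-TR values or the wide spread of the T47D MS177 libraries. The comparisons of a line share their DMSO libraries.

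Genes given with values were the 5 lowest and 5 highest log2 differences with MS177 in each line and with MS8815, the member of each role group with the highest mean normalized count in DMSO over the 3 lines, and the 5 largest differences past the threshold elsewhere. Other members with values, such as CCNF and KIF4A beside the degraders, were chosen after their values were seen. The members, the role groups and the list of 72 other mitotic genes were chosen with earlier results of these data known. Replicate numbers were not taken to pair the samples. The deviations of same-numbered compound and DMSO samples correlated at -0.343 to 0.350, negative in some groups and positive in others. Alternatives were a pseudocount of 10, no filter or a filter of 100, quantile scaling, no trend, the deposited log2 values as they stand, limma voom on recovered reads, other libraries in the fit, each replicate left out, and a replicate block.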

Additional observations from a re-analysis of the deposited data

Results flagged for a closer look

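The response to MS177 differed between lines by an interaction test. Between T47D-TR and BT-549 it differed for 52 members (limma, adjusted over all genes), each lower in T47D-TR. On the scale of normalized counts the largest differences of the log2 differences, T47D-TR minus BT-549, were -3.71 for SPC25, -3.55 for CENPF, -3.43 for AURKB, -3.38 for SKA1 and -3.15 for ZWINT. Between T47D and BT-549 it differed for 6 members, each lower in T47D. There the differences, T47D minus BT-549, were -1.85 for ZWINT, -1.79 for CDK1, -1.72 for KIF2C, -1.67 for SKA1 and -1.61 for MAD2L1. SKA1 and ZWINT stood in both lists. On the deposited log2 scale SPC25 stood in place 32 and AURKB in place 17 for T47D-TR minus BT-549. The 2 MS177 libraries of T47D correlated at 0.913, against 0.987 for its DMSO pair, and the part of this spread was not tested.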

How the results depend on the processing

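Over 1204 member values under alternatives, 1031 kept direction and side of the threshold, 5 changed sign without passing it, 115 lost it, 51 gained it, and 2 passed it with the other sign, CENPE and KIF20B with MS8815 without MS8815 replicate 2 (0.71 and 0.84; without replicate 1, -1.04 and -0.95). Counts of members past the threshold moved as follows, and the cause was not tested. A fit over all libraries of the line gave 54 for MS177 in T47D (18.2% of genes), 0 for MS177-N1 in T47D-TR and 0 for MS8815. No trend gave 0 for MS177-N1 in T47D-TR and 3 for MS8815 (2.41% of genes). The compared libraries alone gave 0 in each of the MS177 pairs of T47D. A pseudocount of 10 and quantile scaling each gave 1 for MS8815 against MS8815-N (0.259% and 0.46% of genes). An added fit, chosen after seeing the data, without MS8815-N replicate 2 gave 17 for MS8815 against EPZ-6438.

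The replicate block used numbers that were not taken to pair the samples. In T47D it gave 38 for MS177 (5.33% of all genes) and 29 for MS177 against MS177-N1 (2.65%). In BT-549 it gave 25 for MS177 (17.9%) and 11 for MS177-N1, a share of members near the 17% of all genes. For T47D minus BT-549 it gave 0 (0%). A crossed replicate block was added after seeing the data where replicate differences correlated negatively. It gave 48 for MS177 in T47D (10.6% of genes). In BT-549 it gave 54 for MS177 (53 lower, and SKA1 higher), against 60.1% of genes. It also gave 20 for MS177-N2 and 8 for C24 there, against 30.3% and 15.9% of genes, so these shares were near those of all genes. No paired analysis was possible for the 30 h compounds against DMSO, because the DMSO replicates carry other numbers, or for MS177-N1 against DMSO in T47D, which has 1 library and no replicate to leave out.

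Leaving out each replicate in turn gave, against DMSO in T47D, 0 to 55 with MS177, 0 to 4 with MS177-N2 and 0 to 5 with C24. In T47D-TR it gave 53 to 53 with MS177, 0 to 8 with MS177-N1, 0 to 54 with MS8815, 0 to 41 with MS8815-N and 0 to 23 with EPZ-6438. In BT-549 it gave 24 to 42 with MS177, 0 to 1 with MS177-N1, 0 to 2 with MS177-N2 and 0 to 2 with C24. MS177 against MS177-N1, MS177-N2 and C24 gave 54 to 55, 4 to 55 and 6 to 55 in T47D. MS8815 against MS8815-N gave 0 to 32. T47D-TR minus T47D gave 0 to 39, T47D-TR minus BT-549 51 to 53 and T47D minus BT-549 0 to 48. A library left alone in its group is assumed to vary like the others.

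The deposited log2 scale turned the median of T47D-TR minus T47D to 0.21, against -0.93, and gave a median of -1.68 for MS177 in T47D-TR. Groups of 2 and an unknown depth in T47D-TR limit what these counts can show. Low counts there, such as those of CDCA3 and SPC25 with MS177, carry counting error of unknown size.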

Other observations

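Members also differed between the replicates of 1 group. The SD over the 55 members of the log2 ratio of replicate 1 to replicate 2 ran from 0.06 (MS177-N2 in T47D) to 0.71 (MS177 in T47D), other than 2.13 for MS8815-N. MKI67 and PTTG1 were the 2 extremes in the MS177, MS177-N1 and DMSO groups of BT-549: MKI67 had a log2 ratio of 0.71 with MS177, -1.09 with MS177-N1 and -0.53 with DMSO, and PTTG1 had -0.57, 0.41 and 0.38. Across members the ratio went with exon length in several groups, with Spearman's rho of 0.44 for MS177, -0.63 for MS177-N1 and -0.50 for DMSO in BT-549, and 0.50 for DMSO in T47D. These are descriptions over 55 genes of 2 libraries each, and the cause was not tested.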
